A study of Mus musculus with 6 samples.

Results

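The genes described here are 10 receptors of the tumour necrosis factor (TNF) receptor superfamily, out of 22180 genes that could be read from the arrays. They were chosen by name as receptors of this family, with their signal levels and their differences between the groups already known, so those values are given as a description and were not tested. Each of the 10 has a single probe set, and each probe set lists that gene alone in the platform annotation. The Entrez identifiers of all 10 carry the same symbols in the RefSeq gene table of assembly GRCm38.p6. The members with a death domain are Tnfrsf21, Tnfrsf10b, Tnfrsf1a and Fas, and the other 6 are Tnfrsf23, Tnfrsf12a, Tnfrsf1b, Ltbr, Tnfrsf11a and Tnfrsf19.

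The study set stable mouse inner medullary collecting duct (IMCD) cells that overexpress the missense variant ILK-T173I (3 arrays) against IMCD cells that overexpress wild-type ILK (3 arrays). ILK, integrin-linked kinase, is an adaptor at focal adhesions. In both groups the ILK sequence was delivered by a lentiviral vector that also encodes GFP, and the cells of both were stimulated with 20 ng/ml of EGF over 15 minutes, then kept for 1 hour. The comparison is therefore between the 2 ILK forms under EGF, and no array without EGF or without an ILK vector was analysed here. The promoter that drives the vector, the number of lines or clones behind each group, and whether the replicates are separate lines are not stated in the labels. The title of the third T173I sample omits the letter T, while its transduction label reads ILK-T173I.

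Receptors of this family sit at the cell surface and gather into clusters when a trimeric ligand of the TNF family binds. Those with a death domain recruit adaptors such as FADD and TRADD and can start caspase activation, and the others recruit TRAF proteins and mainly lead to NF-kB and MAP kinase signalling. Decoy receptors bind ligand without a complete signalling tail. In kidney epithelium, receptors for TNF and TWEAK are known from work on tubular injury and inflammation.

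The values are log2 signals after RMA, the authors' background correction, normalization and summary of probes, and array signal has no read depth. The array medians were 5.45 to 5.52. T173I arrays were less alike, with correlations of 0.964 to 0.983 over 13308 tested genes, than wild-type arrays, with 0.989 to 0.993. On the first principal component (57.4% of the variance) T173I replicate 1 lay at -11.4, next to the wild-type arrays at -18.3 to -11.3 and apart from T173I replicates 2 and 3 at 38.3 and 15.8. The difference of each receptor is therefore also given without T173I replicate 1, and that of a pathway gene where leaving out 1 array moved it widely. Of the epithelial markers, Cdh1 and Epcam averaged 11.3 and 10.9 in T173I cells and 11.3 and 11.0 in wild-type ILK cells. Aqp2, the water channel that defines principal cells, averaged 6.11 in T173I cells and 6.07 in wild-type ILK cells, close to the filter level of 5.37, and Aqp3 was under that level. Of the 9 epithelial markers, 8 were tested, and 2 were higher and 1 lower in T173I cells by an unadjusted limma p below 0.05. Of all 13308 tested genes, 4.88% were higher and 5.31% lower at that level. The keratins Krt8 and Krt18 had log2 differences of 0.64 and 0.44, with all T173I arrays above the wild-type arrays, and Gata3, which encodes a regulator of collecting duct fate, had one of -0.78, with all T173I arrays below (limma adjusted p = 0.45 for each). Their part in the receptor results was not tested. Of the leukocyte markers 5 of 8 were under the filter level, among them Ptprc, the pan-leukocyte phosphatase, at 3.69 in T173I cells and 3.70 in wild-type ILK cells. The mean of that list was 5.34 to 5.52 on the T173I arrays and 5.35 to 5.53 on the wild-type arrays. Its 3 genes above the filter level were Cd68, with a log2 difference of 1.10, and Csf1r and Tyrobp, with differences of -0.78 and -0.29. Each had an unadjusted limma p below 0.05 and groups that did not overlap, and their part in the results below was not tested. All 5 endothelial markers and 5 of 7 fibroblast markers were also under the filter level. In RNA from a whole culture, fewer cells with a transcript and less transcript per cell cannot be told apart.

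Across the receptors, 4 of 10 had a higher mean in T173I cells and 6 a lower one, and the differences ran from -0.18 to 1.07 on the log2 scale. The 4 higher ones were Tnfrsf23, Tnfrsf21, Tnfrsf10b and Tnfrsf12a. In 3 of the 10, all T173I arrays lay above all wild-type arrays, and in 0 all lay below. Over all 13308 genes tested, 7.23% lay wholly above and 7.95% wholly below, and because these receptors were chosen from the same values, nothing is read from their count. In the limma fit of T173I against wild-type ILK over all 13308 genes, 0 (0%) passed an adjusted p of 0.05, while 1357 (10.2%) had an unadjusted p below 0.05. Of the 10 receptors 9 were above the filter on dim genes and so in that fit, and Fas was not. Without T173I replicate 1, 156 genes (1.17%) passed in limma, while leaving out any other single array gave 0. Because that replicate was singled out for its likeness to the wild-type arrays, nothing is read from the rise.

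**Figure D1:**
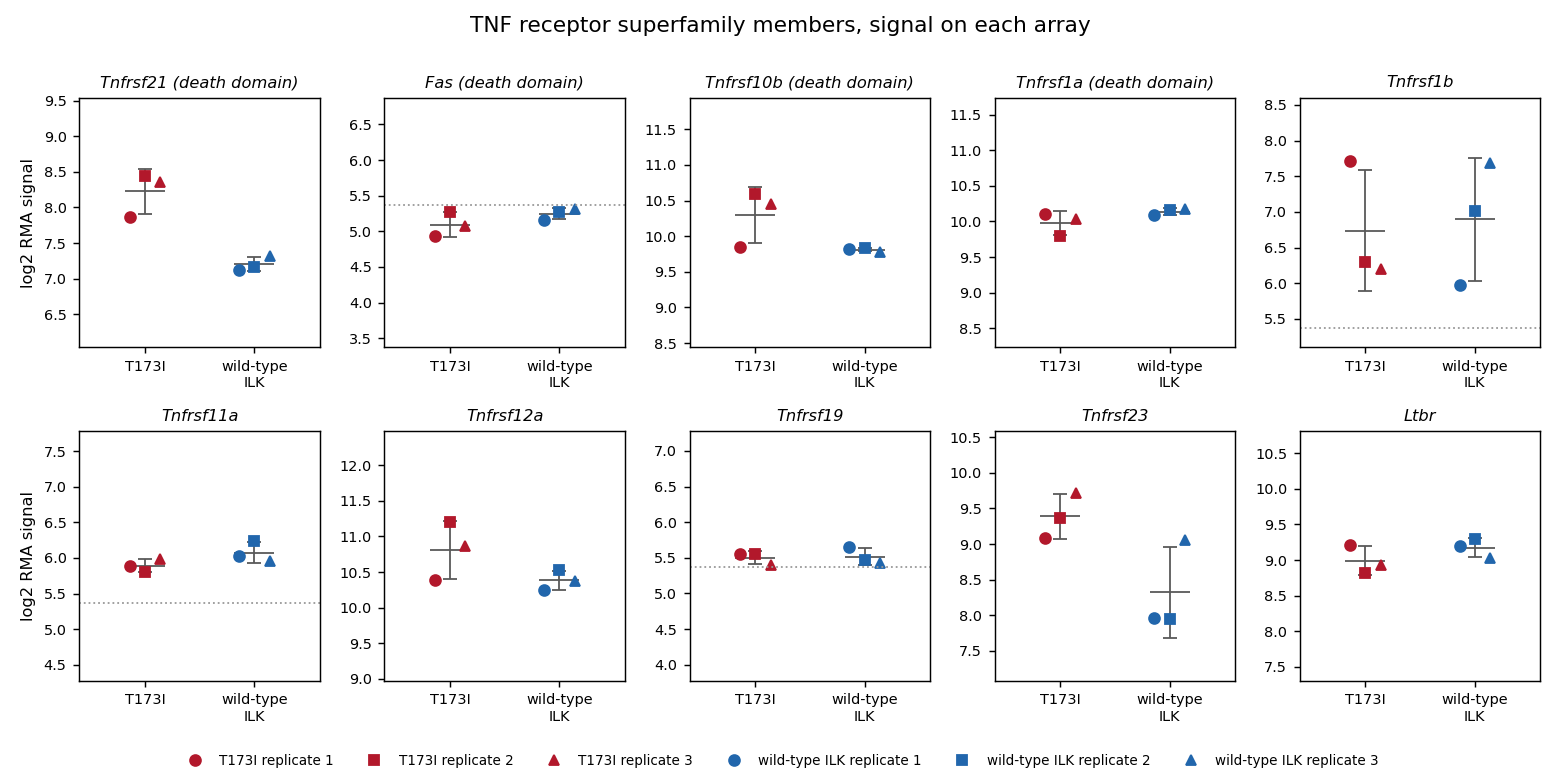
Log2 RMA signal of the 10 receptors on each array, T173I at left and wild-type ILK at right in each panel, with 1 symbol per replicate, a line at the group mean and bars of 1 SD (n = 3). Every panel spans the same number of log2 units, and the dotted line is the filter level of 5.37. All T173I symbols stand above the wild-type symbols for Tnfrsf21, Tnfrsf10b and Tnfrsf23, narrowly so on replicate 1 for the last 2 of these.

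Tnfrsf21, known as death receptor 6, has a cytoplasmic death domain and is best known from neurons, where it takes part in axon pruning, and from T and B cells. Its log2 signal was 7.87, 8.44 and 8.36 on T173I replicates 1, 2 and 3, against 7.13, 7.17 and 7.31 on wild-type replicates 1, 2 and 3. All T173I arrays were above all wild-type arrays, with a gap between the groups on replicate 1 too. The mean was 8.23 ± 0.31 in T173I cells and 7.20 ± 0.098 in wild-type ILK cells (SD, n = 3 each), a log2 difference of 1.02 with a standard error of 0.16 in the fit, or 2.03-fold. Leaving out T173I replicate 1 gave a difference of 1.20 and leaving out T173I replicate 2 gave 0.91, the highest and lowest values when any one array was left out.

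Tnfrsf10b is the mouse receptor for TRAIL that signals death, known as DR5, and is induced by p53 and by endoplasmic reticulum stress. It had 9.85, 10.60 and 10.45 on T173I replicates 1, 2 and 3, against 9.81, 9.83 and 9.78 on the wild-type arrays. T173I replicate 1 was level with the wild-type arrays, and the higher mean came from replicates 2 and 3. The mean was 10.3 ± 0.39 in T173I cells and 9.81 ± 0.023 in wild-type ILK cells (SD, n = 3 each), a log2 difference of 0.49 with a standard error of 0.19. Without T173I replicate 1 the difference was 0.71, and without T173I replicate 2 it was 0.34.

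Tnfrsf1a encodes TNF receptor 1, the main receptor for soluble TNF, which is present on most cell types. Its signal was 10.10, 9.79 and 10.04 on T173I replicates 1, 2 and 3, against 10.09, 10.15 and 10.17 on wild-type replicates 1, 2 and 3. The groups overlapped, and T173I replicate 2 was the lowest array. The log2 difference was -0.16 with a standard error of 0.10, and it was -0.22 without T173I replicate 1 and -0.070 with T173I replicate 2 left out.

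Fas, the receptor for Fas ligand, was under the filter level on every array. It read 4.93, 5.27 and 5.07 on T173I replicates 1, 2 and 3, against 5.16, 5.27 and 5.31 on wild-type replicates 1, 2 and 3. The groups overlapped, and the difference of means was -0.16. It was -0.075 without T173I replicate 1 and -0.25 with T173I replicate 2 left out.

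Taken as a class, the 4 death-domain receptors had a median log2 difference of 0.17, and the other 6 receptors had a median of -0.087. The differences ran from -0.16 to 1.02 in the death-domain class and from -0.18 to 1.07 in the other, nearly the same span. The median over all tested genes was -0.011. Measured from the wild-type mean, the median of the death-domain receptors was 0.0025, 0.41 and 0.27 on T173I replicates 1, 2 and 3, against -0.062, 0.018 and 0.049 on the wild-type arrays. The median of the other receptors was 0.036, -0.11 and -0.11 on the T173I arrays, within the wild-type range of -0.089 to 0.12 on replicate 1 and slightly below it on replicates 2 and 3. Within each class, receptors with a higher mean stood beside receptors with a lower one. Without T173I replicate 1 the median of the death-domain receptors was 0.32. The median of the others changed sign when single arrays were left out, at 0.090 without wild-type replicate 3, 0.075 without T173I replicate 3 and 0.0093 without T173I replicate 2.

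**Figure D2:**
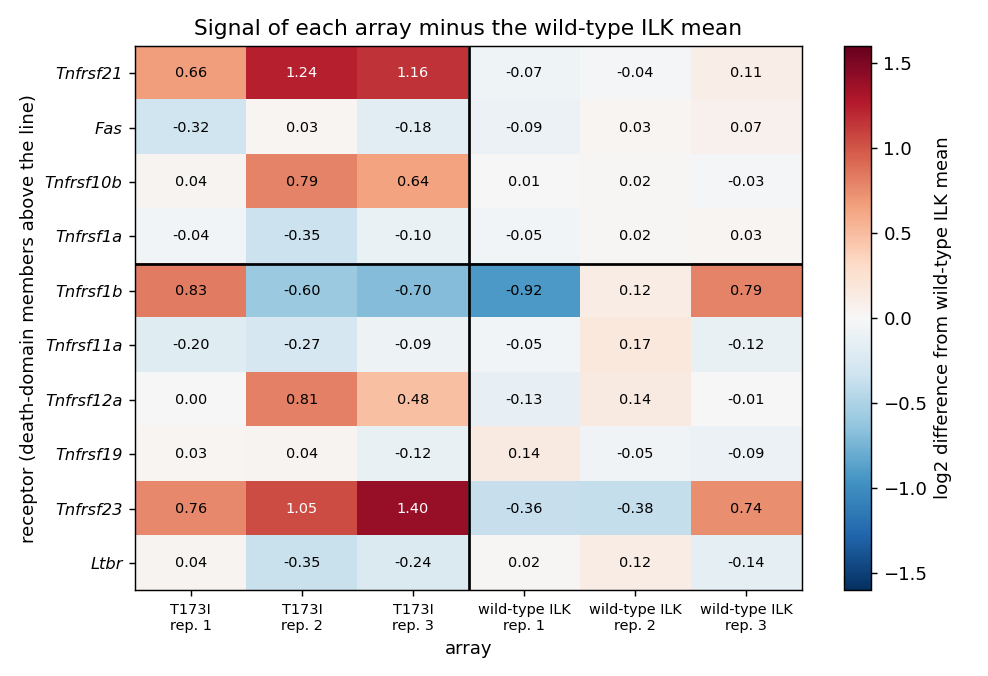
Log2 signal of each array minus the wild-type ILK mean of that receptor, with T173I arrays at left, wild-type ILK arrays at right, and the death-domain receptors above the horizontal line. Tnfrsf21 and Tnfrsf23 are positive on all 3 T173I arrays, while Tnfrsf10b and Tnfrsf12a are at 0.04 and 0.00 on replicate 1 and at 0.48 to 0.81 on replicates 2 and 3.

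Among the receptors with no death domain, Tnfrsf23 had the largest difference of means. In the mouse it is a decoy receptor for TRAIL. Its signal was 9.09, 9.37 and 9.72 on T173I replicates 1, 2 and 3, against 7.96, 7.94 and 9.06 on wild-type replicates 1, 2 and 3. Wild-type replicate 3 was far above the other wild-type arrays and almost level with T173I replicate 1. The mean was 9.39 ± 0.32 in T173I cells and 8.32 ± 0.64 in wild-type ILK cells (SD, n = 3 each), a log2 difference of 1.07 with a standard error of 0.33, or 2.10-fold. Leaving out wild-type replicate 3 gave 1.44 and leaving out wild-type replicate 2 gave 0.88. Leaving out T173I replicate 1 gave 1.22.

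Tnfrsf23 lies on chromosome 7 next to Tnfrsf22 and then Tnfrsf26, with 0 protein-coding genes between Tnfrsf23 and Tnfrsf22 in the RefSeq gene table. Tnfrsf22, the other mouse decoy receptor for TRAIL, read 8.12, 7.89 and 8.33 on T173I replicates 1, 2 and 3, against 7.73, 7.92 and 8.05 on wild-type replicates 1, 2 and 3. These groups overlapped, with a log2 difference of 0.21 and an adjusted p of 0.59 in limma, and the difference was 0.10 to 0.32 over the left-out arrays. Tnfrsf26 was under the filter level. The 3 genes are related copies, and whether their probes detect each other's transcripts was not tested.

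Tnfrsf12a encodes Fn14, the small receptor for TWEAK, which has a short tail that binds TRAF proteins and is induced by growth factors. It had 10.39, 11.19 and 10.86 on T173I replicates 1, 2 and 3, against 10.25, 10.52 and 10.38 on wild-type replicates 1, 2 and 3. T173I replicate 1 lay inside the wild-type range, and replicates 2 and 3 lay above it. The log2 difference was 0.43 with a standard error of 0.20, or 1.35-fold. Leaving out T173I replicate 1 gave 0.64, and leaving out T173I replicate 2 gave 0.24.

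Tnfrsf1b, TNF receptor 2, binds membrane-bound TNF well and carries no death domain. It was spread widely in both groups, at 7.72, 6.30 and 6.20 on T173I replicates 1, 2 and 3, against 5.98, 7.02 and 7.69 on wild-type replicates 1, 2 and 3. T173I replicate 1 and wild-type replicate 3 were high, and the lowest array was wild-type replicate 1. The SD was 0.85 in T173I cells and 0.86 in wild-type ILK cells, so the log2 difference of -0.16 with a standard error of 0.55 was far inside the spread. Leaving out single arrays moved it from -0.65, without T173I replicate 1, to 0.24, without wild-type replicate 3.

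Ltbr, the lymphotoxin beta receptor, activates the alternative NF-kB pathway. It read 9.22, 8.82 and 8.94 on T173I replicates 1, 2 and 3, against 9.20, 9.29 and 9.03 on wild-type replicates 1, 2 and 3. T173I replicates 2 and 3 were below every wild-type array and replicate 1 was not. The log2 difference was -0.18 with a standard error of 0.13. It was -0.30 without T173I replicate 1 and -0.099 with T173I replicate 2 left out. Ltbr and Tnfrsf1a lie close together on chromosome 6, with 1 protein-coding gene, Scnn1a, between them. Both had their lowest signal on T173I replicate 2, the array farthest from the wild-type arrays on the first principal component. Scnn1a had exactly the same value, 6.30, on that array and on each wild-type array. Such tied values limit what can be read about its transcript, and a shared local change was not tested.

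Tnfrsf11a is RANK, the receptor through which RANK ligand drives osteoclast formation. It read 5.88, 5.81 and 5.99 on T173I replicates 1, 2 and 3, against 6.03, 6.24 and 5.95 on wild-type replicates 1, 2 and 3, with overlapping groups and a log2 difference of -0.18. That difference was -0.18 without T173I replicate 1 as well, and -0.10 without wild-type replicate 2, its highest array. Tnfrsf19, known as TROY, is an orphan receptor and a Wnt target in stem cells of the gut. It read 5.55, 5.56 and 5.39 on the T173I arrays, against 5.66, 5.46 and 5.43 on the wild-type arrays, a difference of -0.017 just above the filter level, and -0.042 without T173I replicate 1.

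Upstream sequence was at hand for 9 of the 10 receptors in the RefSeq promoter table of build GRCm38.p6, and Tnfrsf10b had no entry. The 250 bases before the gene start are printed for the 3 receptors with an entry that had the highest differences, a choice made after their values were seen. They are written 5′ to 3′ on the strand of the gene, and capitals mark each match to the GC box, GGGCGG, on either strand.
Tnfrsf21 (chr17:43016305-43016554, + strand): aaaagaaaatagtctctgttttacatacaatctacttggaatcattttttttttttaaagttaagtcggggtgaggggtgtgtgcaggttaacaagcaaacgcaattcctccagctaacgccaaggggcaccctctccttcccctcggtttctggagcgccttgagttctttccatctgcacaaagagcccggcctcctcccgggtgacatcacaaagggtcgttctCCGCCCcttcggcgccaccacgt
Tnfrsf23 (chr7:143685876-143686125, - strand): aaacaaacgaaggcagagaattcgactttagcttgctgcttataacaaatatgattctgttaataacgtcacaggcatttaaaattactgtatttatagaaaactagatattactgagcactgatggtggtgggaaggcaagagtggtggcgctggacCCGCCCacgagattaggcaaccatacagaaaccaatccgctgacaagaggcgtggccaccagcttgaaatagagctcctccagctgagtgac
Tnfrsf12a (chr17:23677450-23677699, - strand): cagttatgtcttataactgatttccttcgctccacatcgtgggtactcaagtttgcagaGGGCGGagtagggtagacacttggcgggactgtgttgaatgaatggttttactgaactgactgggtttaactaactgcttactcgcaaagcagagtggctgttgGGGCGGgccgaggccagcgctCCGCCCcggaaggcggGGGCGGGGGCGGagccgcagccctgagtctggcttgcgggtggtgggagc

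The 3 windows differ in composition, with 50.4% G and C in Tnfrsf21, 44.8% in Tnfrsf23 and 58.8% in Tnfrsf12a. The GC box occurred 1 time in Tnfrsf21, 1 time in Tnfrsf23 and 5 times in Tnfrsf12a, and 32.7% of all 32851 windows in the table hold at least 1. The core of PEA3-type Ets sites, AGGAAG, matched none of these 3 windows and is in 29.5% of all windows. A spacing used by NF-kB sites, GGGNNNNNCC, matched 2 times in Tnfrsf12a and 1 time in Tnfrsf23, in each case overlapping a GC box, and is in 45.8% of all windows. The AP-1 letters TGANTCA matched only the Fas window among the 9 receptors and are in 6.75% of all windows. A match is a run of letters and does not show that a factor binds there.

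The tested genes whose values over the 6 arrays, centred on each gene's mean, lay nearest to those of Tnfrsf21 were Spire1, Ehd2, Wnt10a, Slc13a2os and Il34, with root mean square differences of 0.10 to 0.14 log2 units. Ehd2, an ATPase at the neck of caveolae, read 7.47, 8.15 and 8.02 on T173I replicates 1, 2 and 3, against 6.54, 6.96 and 6.96 on wild-type replicates 1, 2 and 3. Wnt10a, a Wnt ligand, read 6.71, 7.61 and 7.41 on the T173I arrays, against 6.36, 6.26 and 6.45 on the wild-type arrays. As in Tnfrsf21, T173I replicate 1 was the lowest T173I array and still above the wild-type arrays in each of the 5. Because these genes were picked for values near those of Tnfrsf21, that order follows from the choice and is no separate result. With only 6 arrays and 13308 genes, near neighbours of any gene are to be found.

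The rest of the pathway was read from 7 lists, which held 107 genes, of which 98 had a probe set of their own and 77 were tested. Adjusted over all 13308 genes, 0 of the 77 passed in limma. With an unadjusted p below 0.05, 5 had a higher mean and 3 a lower mean in T173I cells, 10.4% of the 77, beside 4.88% higher and 5.31% lower over all genes, 10.2% together. The share in the lists was thus near that of all genes. The median log2 difference of the 77 was -0.0038, with 38 positive and 39 negative. Over all 13308 tested genes 6303 were positive and 7002 negative.

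**Figure D3:**
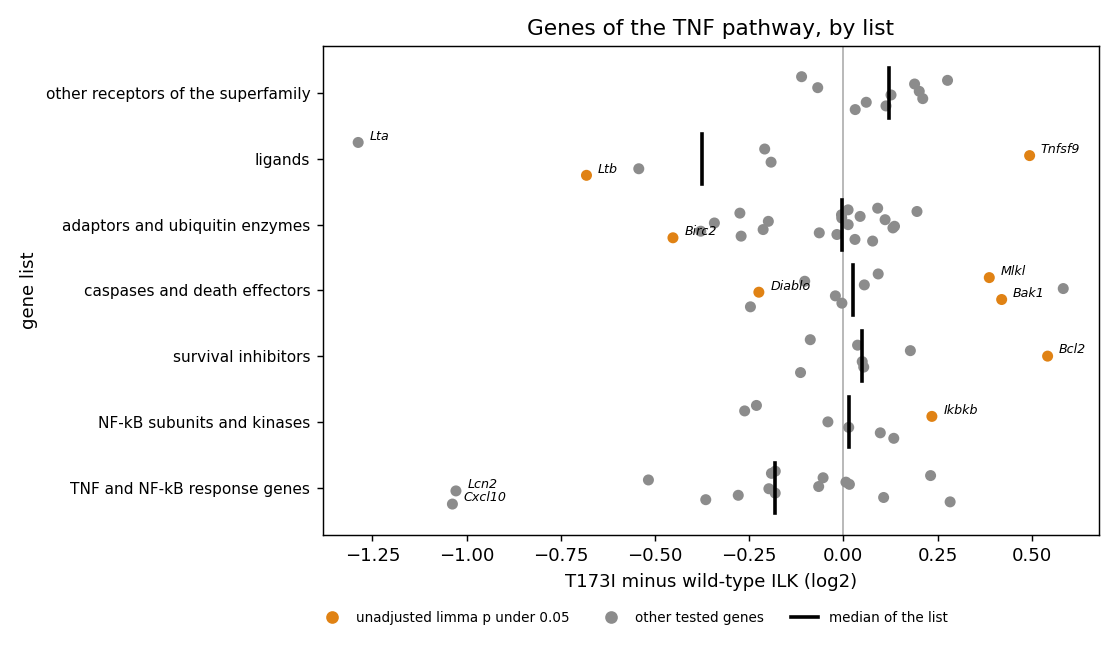
T173I minus wild-type ILK, in log2 units, for each of the 77 tested genes of the 7 pathway lists, 1 row per list, with a black line at the list's median. Orange points had an unadjusted limma p under 0.05, and 0 passed after adjustment. The ligands' median is the lowest at -0.38, with Lta, Ltb and Tnf on the lower side and Tnfsf9 on the higher.

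Of the 18 other receptors of the superfamily, 10 were tested and 0 had an unadjusted p below 0.05. Their median log2 difference was 0.12, with 8 positive and 2 negative. The smallest p was that of Edar, the ectodysplasin receptor, which has a death domain and read 5.72, 5.53 and 5.49 on T173I replicates 1, 2 and 3, against 5.46, 5.25 and 5.42 on the wild-type arrays (log2 difference 0.20, limma adjusted p = 0.52). Tnfrsf18, a costimulatory receptor of T cells, had a difference of 0.19. Over the left-out arrays it ranged from 0.096 to 0.27, and that of Edar from 0.13 to 0.25. Tnfrsf25 and Ngfr, further receptors with a death domain, had differences of 0.13 and 0.061, with means of 5.96 and 5.83 in T173I cells and 5.83 and 5.77 in wild-type ILK cells. Tnfrsf11b, osteoprotegerin, the secreted decoy for RANK ligand, was under the filter level and averaged 5.18 ± 0.11 in T173I cells and 5.41 ± 0.13 in wild-type ILK cells (SD, n = 3 each).

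Among the ligands, 6 of the 16 with a value were tested. A lower mean in T173I cells was found in 5 of the 6, beside 7002 of all 13308 tested genes. Among these 5, Tnfsf15 and Eda had log2 differences of -0.19 and -0.21, with overlapping groups. Over the left-out arrays Tnfsf15 ranged from -0.40 to 0.18 and Eda from -0.37 to -0.025. Ltb, lymphotoxin beta, a part of the ligand of Ltbr, read 5.94, 5.67 and 5.63 on T173I replicates 1, 2 and 3, against 6.32, 6.82 and 6.14 on wild-type replicates 1, 2 and 3. All T173I arrays lay below all wild-type arrays, with a log2 difference of -0.68 and a 95% interval of -1.13 to -0.23 (limma adjusted p = 0.45). Lta, lymphotoxin alpha, a ligand of both TNF receptors, read 8.13, 5.69 and 5.37 on the T173I arrays, against 7.10, 8.31 and 7.63 on the wild-type arrays. T173I replicate 1 was inside the wild-type range and replicates 2 and 3 were far below it. For Lta, the readings on replicates 2 and 3 were close to the filter level of 5.37, which limits how the size of its difference can be read. Its log2 difference was -1.29 (limma adjusted p = 0.55), and leaving out T173I replicate 1 gave -2.15 and leaving out T173I replicate 3 gave -0.77.

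Tnf itself read 6.36, 5.95 and 5.39 on T173I replicates 1, 2 and 3, against 6.38, 6.57 and 6.37 on wild-type replicates 1, 2 and 3, a log2 difference of -0.54 (limma adjusted p = 0.49). All T173I arrays were below the wild-type arrays, replicate 1 by very little. Leaving out T173I replicate 1 gave -0.77, and leaving out T173I replicate 3, the lowest array and close to the filter level, gave -0.29. Tnfsf9, the ligand of Tnfrsf9, went the other way, at 7.79, 7.55 and 8.07 on the T173I arrays, against 7.17, 7.43 and 7.33 on the wild-type arrays (log2 difference 0.49, limma adjusted p = 0.45). The ligands of the death receptors were dim: Fasl averaged 4.94 in T173I cells and 4.85 in wild-type ILK cells, and Tnfsf10, which encodes TRAIL, averaged 4.55 in T173I cells and 4.58 in wild-type ILK cells, both under the filter level. Tnfsf12, which encodes TWEAK, shares its probe set with other genes and was not read.

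**Figure D4:**
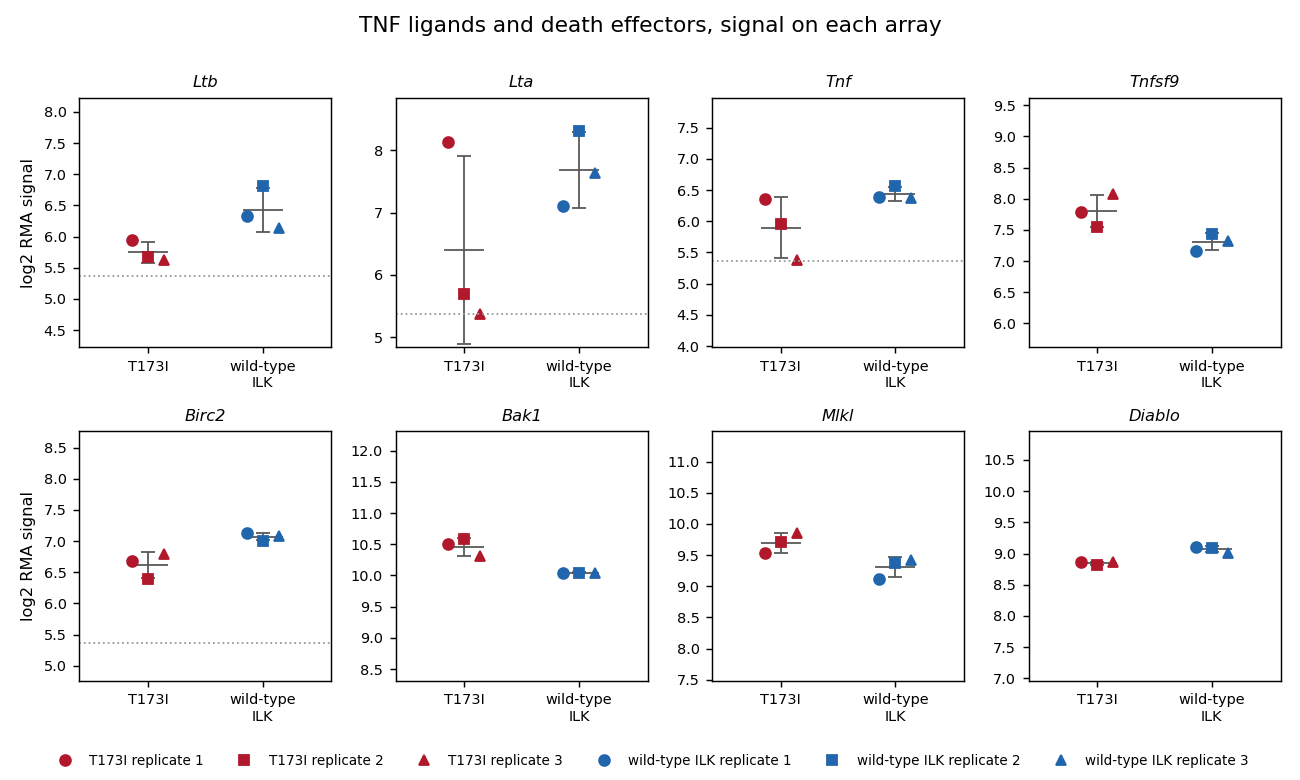
Log2 RMA signal on each array for 4 ligands and 4 genes of the death and survival machinery, T173I at left and wild-type ILK at right in each panel, with the group mean and bars of 1 SD (n = 3). All T173I symbols are below the wild-type symbols for Ltb, Tnf, Birc2 and Diablo and above them for Tnfsf9, Bak1 and Mlkl, while Lta overlaps because T173I replicate 1 reads 8.13.

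Of the 21 tested adaptors and ubiquitin enzymes, 1 had an unadjusted p below 0.05. This was Birc2, which encodes cIAP1, a ubiquitin ligase of the TNF receptor complex, at 6.69, 6.39 and 6.78 on T173I replicates 1, 2 and 3, against 7.13, 7.01 and 7.07 on wild-type replicates 1, 2 and 3. The groups did not overlap, and the log2 difference was -0.45 with a 95% interval of -0.74 to -0.17 (limma adjusted p = 0.45). Birc3, which encodes cIAP2, had a difference of -0.27, Tab1, a partner of the kinase TAK1, one of -0.34, Fadd one of -0.21 and Traf2 one of -0.20. None of these 4 had an unadjusted p below 0.05, and over the left-out arrays Tab1 ranged from -0.53 to -0.15, Fadd from -0.33 to -0.14 and Traf2 from -0.29 to -0.11. The list's median was -0.0042. Ripk1 and Traf3 were not read.

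Of 10 tested caspases and death effectors, 3 had an unadjusted p below 0.05, of which 2 were higher in T173I cells and 1 lower. Bak1, a pore-forming protein of the mitochondrial outer membrane, read 10.50, 10.59 and 10.31 on T173I replicates 1, 2 and 3, against 10.05, 10.04 and 10.05 on the wild-type arrays. All T173I arrays were above the wild-type arrays, with a log2 difference of 0.42 and a 95% interval of 0.19 to 0.65 (limma adjusted p = 0.45). Mlkl, the executor of necroptosis, had a difference of 0.39, and Diablo, a mitochondrial antagonist of inhibitor of apoptosis proteins, one of -0.22 (limma adjusted p = 0.45 for both). Ripk3, the kinase that acts on MLKL, had a difference of 0.58 that was 0.17 without wild-type replicate 1, its lowest array at 6.22. Casp8, the initiator caspase of death receptors, was level at 12.2 ± 0.025 in T173I cells and 12.2 ± 0.031 in wild-type ILK cells (SD, n = 3 each), a log2 difference of -0.0038 with a 95% interval of -0.17 to 0.17.

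Of the 7 survival inhibitors, Bcl2 alone had an unadjusted p below 0.05. It read 8.56, 9.16 and 9.47 on T173I replicates 1, 2 and 3, against 8.39, 8.57 and 8.61 on wild-type replicates 1, 2 and 3 (log2 difference 0.54, limma adjusted p = 0.49). T173I replicate 1 was inside the wild-type range, and the difference was 0.79 without it and 0.34 without T173I replicate 3. Cflar, which encodes FLIP, the inhibitor of caspase 8 at death receptors, differed by 0.038 (95% interval -0.18 to 0.25). It had exactly the same value, 7.78, on T173I replicates 1 and 3 and wild-type replicates 2 and 3. Such ties limit what its difference and interval can show. Birc5, Xiap and Mcl1 had differences of 0.18, -0.11 and -0.088, which ranged over the left-out arrays from 0.021 to 0.26, -0.20 to 0.019 and -0.18 to -0.026 in that order.

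The NF-kB subunits and kinases had a median log2 difference of 0.014, and 1 of 7 tested had an unadjusted p below 0.05, Ikbkb, a kinase of the inhibitor of NF-kB, with a difference of 0.24 (limma adjusted p = 0.49). Relb, the subunit of the alternative pathway, had a difference of -0.26, Ikbkg one of -0.23 and Rel one of 0.13. Over the left-out arrays these ranged from -0.36 to -0.11 for Relb, -0.43 to -0.082 for Ikbkg and 0.0027 to 0.24 for Rel. The 16 tested response genes of TNF and NF-kB had a median of -0.18, with 11 negative, and 0 had an unadjusted p below 0.05. Cxcl10, a chemokine, read 7.73, 9.36 and 8.59 on T173I replicates 1, 2 and 3, against 10.16, 9.15 and 9.49 on wild-type replicates 1, 2 and 3, a log2 difference of -1.04 (limma adjusted p = 0.49). It was -0.62 without T173I replicate 1, its lowest array, and -1.44 with T173I replicate 2 left out. Nfkbia, the feedback inhibitor of NF-kB, had a difference of -0.37, and Csf1, a macrophage growth factor, one of -0.52. Without T173I replicate 3 these were -0.21 and -0.11, and without T173I replicate 2 they were -0.54 and -0.94. Lcn2, a marker of tubular injury, had one of -1.03 that was -0.17 without T173I replicate 2, where it read 9.35 beside 12.01 and 11.85 on the other T173I arrays. Tnip1 had a difference of -0.20 that was -0.075 without T173I replicate 2.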

How the data were processed

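The authors' deposited table holds log2 signals of 41345 probe sets on 6 arrays, for which the submitters' processing notes name RMA. The RMA version and settings are not given there. RMA gives arrays like distributions, so a shift of most transcripts would not show. Of the probe sets, 23521 had 1 gene symbol in the platform annotation, and the one with the highest mean stood for a gene. The 40% of genes with the lowest mean were left out, which kept 13308. T173I was compared with wild-type ILK with limma (version 3.58.1, R 4.3.3; lmFit, eBayes, two-sided, no covariate), adjusted by Benjamini-Hochberg over these genes. The p-values measure the spread between arrays, whose number limits the precision.

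The receptors and lists were chosen with earlier results of these data known. Genes were named as all 10 receptors, up to 4 per list by unadjusted p, a fixed set of ligands, receptors and adaptors where they could be read, and 5 by likeness to Tnfrsf21. Csf1, among the response genes, and Tnfsf15 and Eda, among the ligands, were named outside this rule. Of the tested genes 2639 had equal values on some pair of arrays, but none of the 10 receptors did. The limma script was tested on simulated data. Alternatives covered the filter, eBayes prior, normalization, probe set rule, array weights, replicate block and leaving out each array.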

Additional observations from a re-analysis of the deposited data

How the results depend on the processing

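The differences of all 10 receptors moved by less than 1 SD between arrays, but with 3 arrays per group leaving out 1 cannot move them further. The filter and eBayes prior could not move them either, since a difference of group means does not depend on them. Nor could the probe set rule, since each receptor has 1 probe set. Normalization and array weights could, and all settings with 6 arrays gave 1.005 to 1.07 for Tnfrsf21 and 1.05 to 1.25 for Tnfrsf23. They gave 0.47 to 0.53 for Tnfrsf10b and 0.41 to 0.44 for Tnfrsf12a. The ranges over the left-out arrays were 0.91 to 1.20 for Tnfrsf21, 0.34 to 0.71 for Tnfrsf10b, 0.88 to 1.44 for Tnfrsf23 and 0.24 to 0.64 for Tnfrsf12a. Leaving out arrays in turn gave 0 to 156 genes past the adjusted threshold, the 156 without T173I replicate 1. It gave 666 to 2948 genes at an unadjusted p below 0.05, with 666 when wild-type replicate 1 was left out, 794 for wild-type replicate 2 and 2948 for T173I replicate 1. The genes whose groups did not overlap then made up 21.4% to 39.6%, where fewer arrays leave less room for overlap. The median of the death-domain receptors was 0.13 to 0.32, and that of the others -0.11 to 0.090. Pathway genes at an unadjusted p below 0.05 numbered 3, without wild-type replicate 1, to 18, without T173I replicate 1. Array weights gave 2856 genes and 22 pathway genes at that level. The replicate block gave 0 genes past the adjusted threshold, 1508 at an unadjusted p below 0.05 and 8 pathway genes at that level. With the same replicate numbers in both groups, it could not move the receptors' differences. Same-numbered arrays deviated together weakly, with correlations of 0.049, 0.067 and 0.048, and the numbers were not taken to pair the arrays. The cause of these shifts was not tested. Signal near the filter level limits what can be read for Fas, Tnfrsf19 and Tnfrsf11a, and for the low T173I readings of Ltb, Lta and Tnf.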
